A study of Caenorhabditis elegans with 12 samples.

Results

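The H3K9me3 signal of germline nuclei of C. elegans was compared with the background of the same assay. The comparison took in all 12 libraries of the series, 9 labelled H3K9me3 and 3 labelled IgG. They were chosen by that label alone. Each value is a count of CUT&Tag fragments over the exons of a gene, and 46719 nuclear genes of 46760 in the files entered after 5 nuclear rRNA genes and 36 mitochondrial genes were left out. CUT&Tag uses an antibody to bring a transposase to chromatin, so that the DNA nearby is cut and tagged for sequencing.

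The nuclei came from 1-day-old adult animals grown at 20 °C, of 3 genotypes with 3 H3K9me3 libraries and 1 IgG library each. The hrde-1 mutants were strain USC661, which carries hrde-1(tm1200) III. The hrde-2 mutants were strain FD53, which carries the allele qe20 of hrde-2 (also called enri-3) on chromosome V. The wild-type animals were N2. HRDE-1 is a nuclear Argonaute protein that uses small RNAs to direct silencing in the germline, and the study describes HRDE-2 as needed for the right small RNAs to reach it. Animals were lightly fixed with formaldehyde before the nuclei were isolated and filtered away from worm debris. The tissue field of the labels says whole worm and the fraction field says purified germline nuclei. Each genotype is 1 strain, and each library draws on nuclei pooled from many animals, so a share of nuclei that carry the mark and the amount per nucleus cannot be told apart. The H3K9me3 libraries are biological triplicates. The study describes a negative control made without primary antibody, and the libraries labelled IgG are taken here to be that control. They would then have received only the secondary anti-rabbit IgG and the transposase fused to protein A, both shared with the H3K9me3 libraries. According to the study's own test of specificity, the anti-H3K9me3 antibody also binds H3K27me3 and H4K20me3. The signal called H3K9me3 here can therefore hold any of these marks.

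H3K9me3 is a methyl mark on histone H3 that is laid down over repeats, transposons and silenced genes. In C. elegans the autosomes are built of a central region, dense in genes that most cells use, flanked by arms that are rich in repeats and in large, fast-changing gene families such as chemoreceptors. The mark is known to lie mainly on the arms. Tagmentation without an antibody also has a pattern of its own, because the transposase enters open chromatin more easily than closed chromatin. A library without primary antibody measures that pattern.

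Values are given as CPM, the count scaled to 1000000 counts of a library on nuclear genes without rRNA genes. The H3K9me3 libraries held between 1186039 and 6950421 such counts. The IgG libraries held 25757 in hrde-1 mutants, 10120 in hrde-2 mutants and 132269 in wild-type, so that the wild-type library carried 78.7% of all IgG counts. At these depths 1 count was worth 38.8, 98.8 and 7.56 CPM in the 3 IgG libraries, and a gene with no count in all 3 may still have had up to 17.8 CPM over the pooled IgG counts (3 counts of 168146). Nuclear rRNA genes took between 13.5% and 25.4% of all counts in the H3K9me3 libraries, against 24.8%, 25.5% and 37.1% in the IgG libraries of hrde-1, hrde-2 and wild-type. Mitochondrial genes took between 1.11% and 3.24% in the H3K9me3 libraries, against 6.78%, 1.92% and 6.34% in the IgG libraries in the same order.

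The IgG profiles were related to the H3K9me3 profiles but were not copies of them. When each H3K9me3 library was thinned to the depth of the IgG library of its genotype, its counts in 203 windows of 500 kb correlated with the mean H3K9me3 profile with Pearson's r of 0.907 to 0.934 in hrde-1 mutants, 0.835 to 0.851 in hrde-2 mutants and 0.945 to 0.968 in wild-type. The IgG libraries gave r of 0.811, 0.802 and 0.781. These correlations run across windows, which are not independent, and they describe the libraries only. The chi-square per degree of freedom over the 10627 genes tested was taken against the mean of the other H3K9me3 libraries of the same genotype. It was between 0.98 and 1.31 in the thinned H3K9me3 libraries, against 3.95, 2.12 and 4.27 in the IgG libraries of hrde-1, hrde-2 and wild-type. IgG counts thus departed further from the H3K9me3 profile of their genotype than a thinned H3K9me3 library did. The measure cannot tell a different profile from a more uneven spread. Of these genes, which entered mostly through their H3K9me3 count, 4608, 6957 and 565 had no count in the 3 IgG libraries. The thinned H3K9me3 libraries left 2662 to 2707, 5738 to 5830 and 45 to 65 of them without a count. The part that copied fragments play in this departure was not tested. The ratio of H3K9me3 to IgG over windows correlated between hrde-1 and wild-type (r = 0.516) but hardly between hrde-1 and hrde-2 (r = 0.035) or between hrde-2 and wild-type (r = -0.08, n = 203 windows). With 47 IgG counts in the median window, the hrde-2 ratios carry the largest counting error of the 3.

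H3K9me3 counts lay further out on the autosomes than IgG counts in hrde-1 mutants and in wild-type, but not in hrde-2 mutants. The outer parts were taken as the first and the last of 3 equal parts of each autosome. They held 67.7 ± 0.742% of autosomal H3K9me3 counts in hrde-1 mutants, against 65.1% of IgG counts (64.5 to 65.8, Wilson 95% confidence interval). They held 68.3 ± 0.774% in hrde-2 mutants, against 69.3% of IgG counts (68.3 to 70.3), and 70.0 ± 1.08% in wild-type, against 63.5% of IgG counts (63.2 to 63.8; SD, n = 3 H3K9me3 libraries each). The 6 libraries of hrde-1 and wild-type were above their IgG library and the 3 of hrde-2 were below theirs. The mean difference over genotypes of 2.69 percentage points did not pass an exact two-sided permutation test of the antibody label within genotypes (p = 0.125, where the smallest p of the 64 arrangements is 0.03125). The largest part of the gap came from the wild-type IgG library, which had the lowest outer share of all 12.

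**Figure D1:**
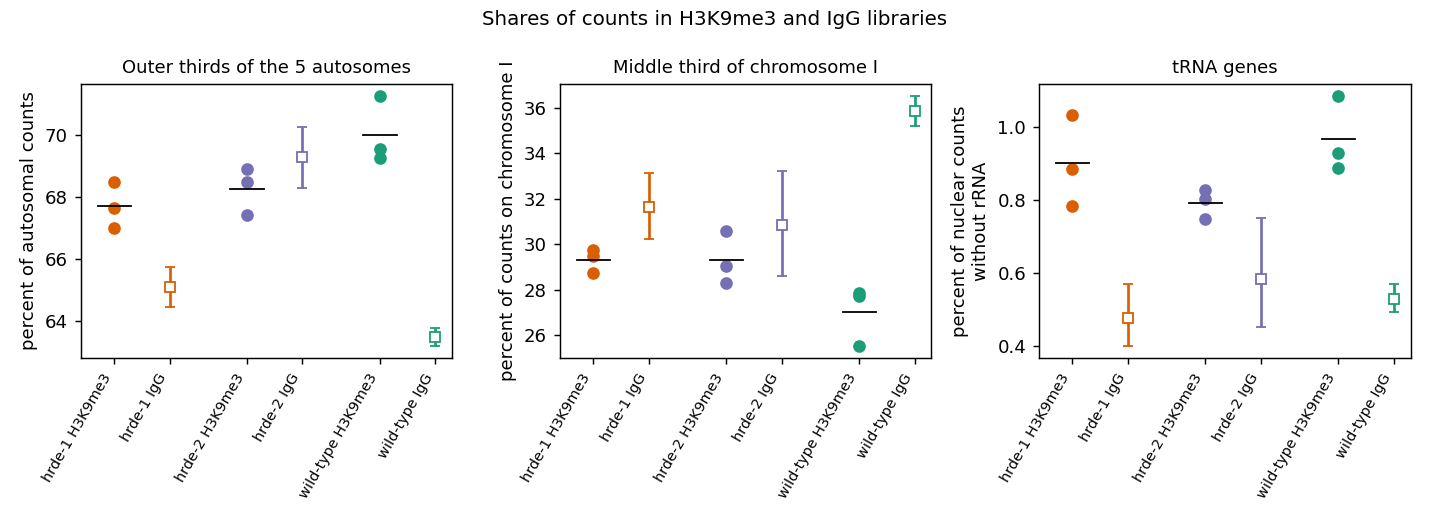
Percent of counts in the outer parts of the 5 autosomes, in the middle part of chromosome I and in tRNA genes, for each H3K9me3 library (filled points, with the mean as a line) and each IgG library (open squares with Wilson 95% intervals), by genotype; the axes do not start at 0. In tRNA genes all 9 H3K9me3 libraries lie above the IgG library of their genotype, and in the middle of chromosome I all 9 lie below it, whereas in the outer parts the hrde-2 libraries lie below their IgG library.

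In finer steps the wild-type contrast was a smooth trough. Dividing the autosomes into 10 equal parts, the share of H3K9me3 counts over the share of IgG counts in wild-type was 1.24 in the first part, 0.822 in the sixth part and 1.25 in the ninth part. In hrde-1 mutants the same ratio was 1.13 in the first part and 0.909 in the fourth part. In hrde-2 mutants it was 0.946 in the first part and 1.08 in the sixth part, the opposite order. On X the wild-type ratio was 1.19 in the first part and 1.17 in the tenth, and lay between 0.918 and 1.05 in the others.

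**Figure D2:**
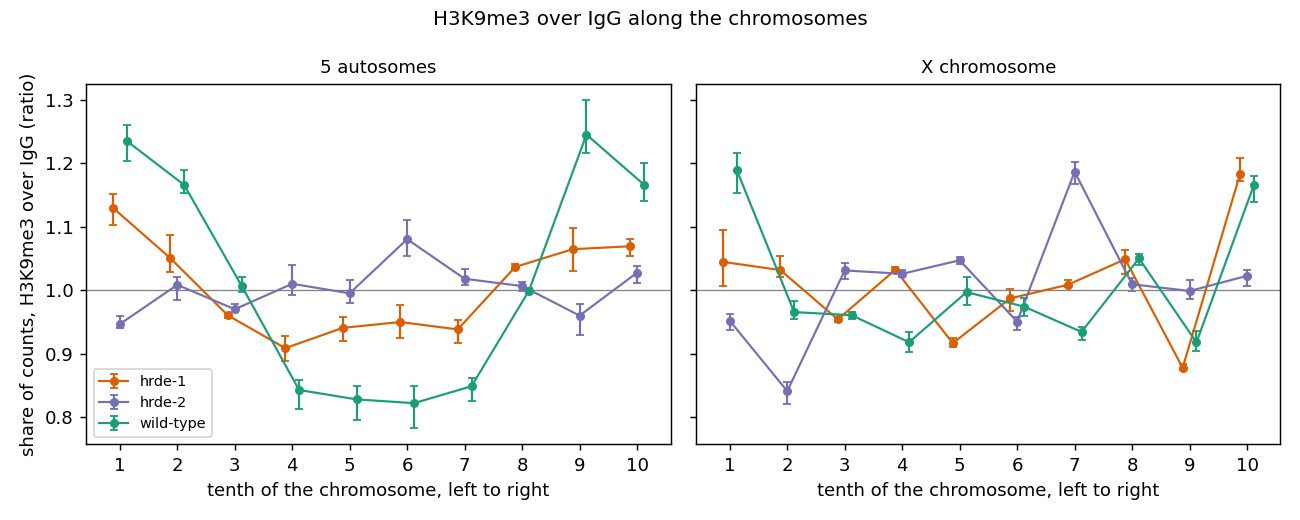
Share of counts in H3K9me3 libraries over the share in the IgG library of the same genotype (ratio, vertical axis) in 10 equal parts of the chromosomes from left to right, for the 5 autosomes together and for X; points are means of 3 H3K9me3 libraries and bars run over the lowest and highest library. On the autosomes the wild-type ratio is 1.24 in the first part and 0.822 in the sixth, and the hrde-2 line stays near 1.

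By chromosome, the clearest difference was a deficit on chromosome I. It held between 14.6% and 15.1% of H3K9me3 counts, against 15.2%, 15.2% and 15.5% of IgG counts in hrde-1, hrde-2 and wild-type. All 9 H3K9me3 libraries were below their IgG library, and the mean difference of -0.474 percentage points had the smallest p the exact permutation test can give (0.03125, adjusted over 6 chromosomes 0.188). Part of this deficit came from F31C3.14 and F31C3.16, 2 genes of the rDNA repeat at the right end of the chromosome. Together they held 2446, 1680 and 5595 CPM in the IgG libraries of hrde-1, hrde-2 and wild-type. In the H3K9me3 libraries they held 938 to 1745 CPM. Within the chromosome, the middle part held 29.3 ± 0.540%, 29.3 ± 1.15% and 27.04 ± 1.30% of the chromosome's H3K9me3 counts in hrde-1, hrde-2 and wild-type (SD, n = 3), against 31.7%, 30.9% and 35.8% of its IgG counts. Again all 9 libraries were below, with a mean difference of -4.23 percentage points (exact permutation p = 0.03125, adjusted over 18 chromosome parts 0.211). No chromosome or chromosome part passed the adjusted threshold.

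Chromosome V, the longest chromosome and the one with most chemoreceptor genes, held 24.0 ± 0.383% of H3K9me3 counts in hrde-1 mutants against 22.7% of IgG counts, 23.7 ± 0.118% against 24.1% in hrde-2 mutants, and 23.8 ± 0.295% against 22.3% in wild-type (SD, n = 3). On chromosome III the shares were 11.9 ± 0.111% against 12.8%, 12.3 ± 0.068% against 12.1%, and 12.1 ± 0.255% against 13.1% in the same order. On X they were 17.4 ± 0.537% against 17.0%, 16.9 ± 0.169% against 17.6%, and 17.3 ± 0.377% against 16.8%. For all 3 chromosomes hrde-2 stood on the other side from hrde-1 and wild-type, and none passed the test (exact permutation p = 0.125, 0.125 and 0.781).

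To place the signal along the chromosomes with more counts per unit than single genes hold, counts were summed over genes in windows of 500 kb and tested with edgeR's quasi-likelihood F-test, with genotype as a block and Benjamini-Hochberg adjustment over the 203 windows. H3K9me3 was above IgG in 43 windows (21.2%) and below in 45 (22.2%). Of the 43, 39 were above by the hrde-1 ratio, 31 by that of hrde-2 and all 43 by that of wild-type, whose IgG library is the deepest. Of the 45, 38, 23 and 45 were below in the same order. In all 3 genotypes together, 29 of the 43 were above and 20 of the 45 below. The median hrde-2 log2 ratio of the 45 was -0.017, so hrde-2 hardly shared in these calls. The sides come from the counts that gave the calls, and the shares over all windows are not given. Of 113 windows in the outer parts of the autosomes, 38 were above and 10 below. Of 54 windows in the middle parts, 0 were above and 33 below. Of 36 windows on X, 5 were above and 2 below. The middle parts of chromosomes I and II each had 9 of 10 windows below IgG, and the right part of chromosome V had 7 of 14 above and 0 below. The ratio of H3K9me3 to IgG differed between hrde-1 mutants and wild-type in 5 windows (2.46%) and between hrde-2 mutants and wild-type in 22 (10.8%), tested as an interaction of genotype and antibody with the same adjustment. All these counts lean on the wild-type IgG library. For the calls over the 3 genotypes it decides nearly everything, since without it 0 windows were above and 1 was below. With the rRNA and mitochondrial genes in the totals 143 windows were above and 2 below, so the split into higher and lower windows is relative to the nuclear genes outside the rDNA.

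**Figure D3:**
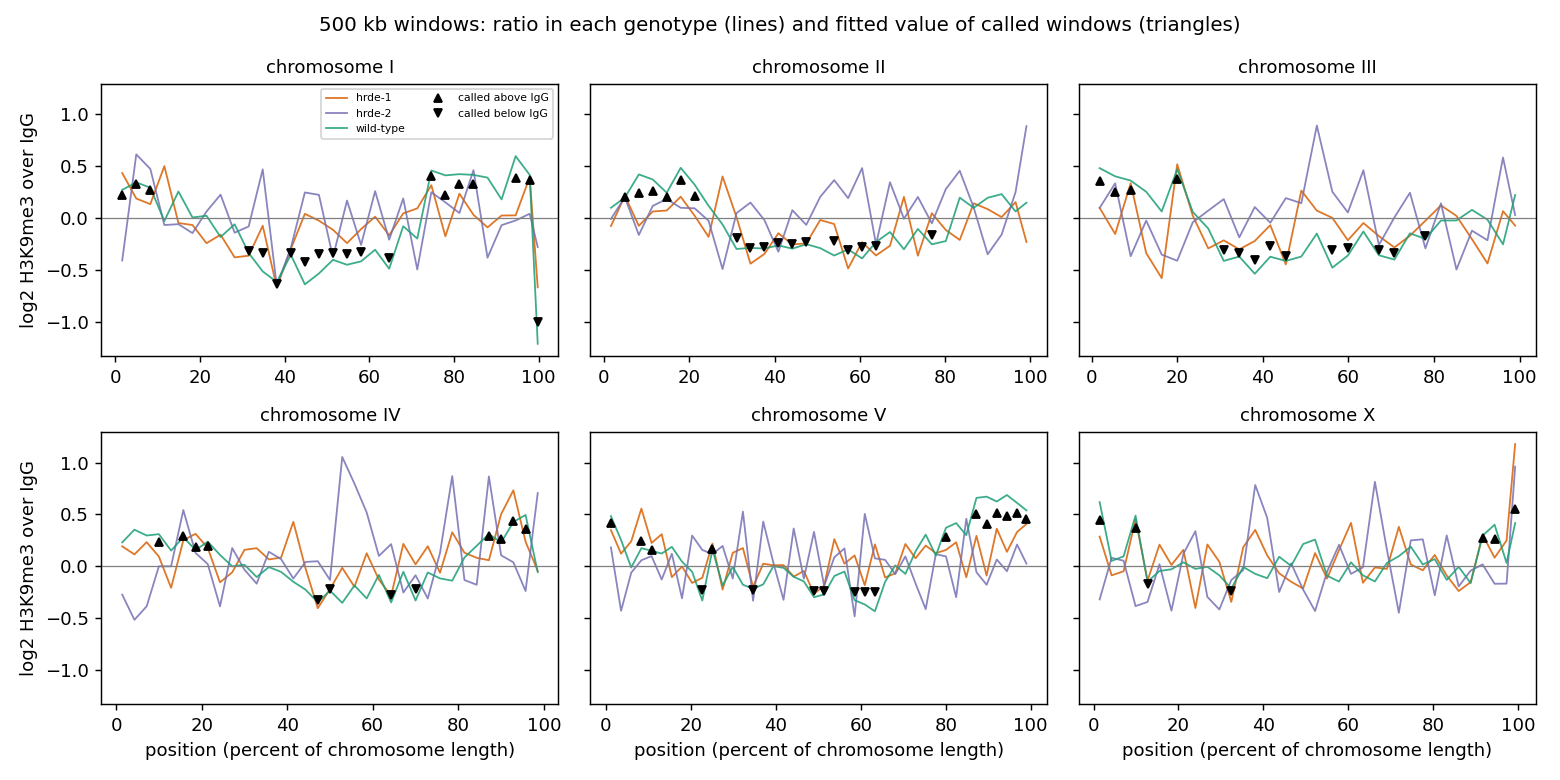
Log2 ratio of H3K9me3 to IgG CPM in 500 kb windows along the 6 nuclear chromosomes (horizontal axis in percent of chromosome length), with a line for each genotype and black triangles at the fitted value of the 43 windows called above and the 45 called below IgG (edgeR, adjusted p under 0.05). Of the windows called above, 38 lie in the outer parts of the autosomes and 5 on X, and of those called below 33 lie in the middle parts, 10 in the outer parts and 2 on X. The hrde-2 line, which rests on 47 IgG counts in the median window, swings most widely.

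One window kept its call without the wild-type IgG library, and all 3 genotypes placed it below the background by about the same amount. It lies in the middle of chromosome I, from 5500001 to 6000000, and has 144 genes. Its H3K9me3 level was between 3448 and 4100 CPM over the 9 libraries (median 3732), against 5979, 6126 and 5542 CPM in the IgG libraries of hrde-1, hrde-2 and wild-type, which held 154, 62 and 733 counts there. No H3K9me3 library reached any of the IgG values. The fitted log2 difference was -0.63 ± 0.07 (SE, edgeR), and without the wild-type IgG library it was -0.66 with an adjusted p of 0.0022. Of its 48 genes tested, 7 were below IgG and 0 above, against 2.97% below and 3.81% above over all genes tested. These calls use the same counts as the window and are no separate support for it. Among the genes of the window, trpp-8 encodes a subunit of a trafficking complex of the Golgi and npp-7 a protein of the nuclear pore. F55F8.3, which lies between them, had the lowest log2 fold change of all genes named here.

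The lowest window was the right end of chromosome I, 15000001 to 15072426, which borders on and reaches into the rDNA repeat. It had 2380 to 3274 CPM in the H3K9me3 libraries (median 3091), against 4620, 3557 and 7205 CPM in the IgG libraries of hrde-1, hrde-2 and wild-type (log2 fold change -0.9998 ± 0.13, SE). This value rests on the rDNA genes F31C3.14 and F31C3.16, which held 77.6% of the wild-type IgG counts in the window and 38.1% to 56.4% of the counts in the H3K9me3 libraries. Without the genes of the rDNA repeat, an alternative chosen after seeing the data, the window was no longer called (log2 fold change -0.25 ± 0.14, SE, edgeR adjusted p 0.171). Other windows of the lowest 6 were I 6500001 to 7000000 (-0.42), III 5000001 to 5500000 (-0.40), I 9500001 to 10000000 (-0.38) and III 6000001 to 6500000 (-0.36). For the first of these only wild-type was below IgG, with log2 ratios of 0.04, 0.25 and -0.64 in hrde-1, hrde-2 and wild-type.

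The highest window was the right end of X, 17500001 to 17718720. It had 1252 to 1498 CPM in the H3K9me3 libraries (median 1355), against 582, 692 and 1066 CPM in the IgG libraries of hrde-1, hrde-2 and wild-type. All 9 H3K9me3 libraries were above all 3 IgG libraries, although the hrde-1 and hrde-2 values rest on 15 and 7 counts. The fitted log2 difference was 0.55 ± 0.14 (SE). The other 5 of the highest 6 windows lay on the right arm of chromosome V, in a stretch from 18000001 to 20922738 in which every window was called above IgG. The fitted log2 differences there ran between 0.41 and 0.52. The window from 20000001 to 20500000 had 4051 to 4937 CPM in the H3K9me3 libraries (median 4390), against 3339, 3755 and 3032 CPM in the IgG libraries, and was above in each genotype. In the window from 19500001 to 20000000 the log2 ratios were 0.14, -0.05 and 0.69 in hrde-1, hrde-2 and wild-type, so that wild-type carried that call. On chromosome IV the 4 windows from 15000001 to 17000000, which hold 1510 to 1996 genes each because genes of Piwi-interacting RNAs (piRNAs) are packed there, were above IgG by 0.27 to 0.44 on the log2 scale. The piRNA genes themselves, too short to hold many exonic fragments, took 0.489 ± 0.0127%, 0.543 ± 0.0823% and 0.557 ± 0.121% of H3K9me3 counts (SD, n = 3), against 0.443%, 0.366% and 0.664% of IgG counts, with no common direction.

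Within the stretch on chromosome V, unc-80 (WBGene00006812, V 20879854 to 20898906), which encodes a subunit needed by a sodium leak channel of neurons, had 366 to 492 CPM in the H3K9me3 libraries (median 412), against 116, 0 and 272 CPM in the IgG libraries of hrde-1, hrde-2 and wild-type. All 9 H3K9me3 libraries were above all 3 IgG libraries (log2 fold change 1.04 ± 0.27, SE, adjusted p 0.014). Its neighbour mlt-11, a protease inhibitor of the molting cuticle, had 708 to 1059 CPM (median 811), against 505, 988 and 491 CPM. There the hrde-2 IgG library lay inside the range of the H3K9me3 libraries, and the call was close to the threshold (log2 fold change 0.68, adjusted p 0.044).

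Gene by gene, 405 of 10627 genes tested were above IgG (3.81%) and 316 were below (2.97%) in edgeR's quasi-likelihood test, and 2493 genes had an unadjusted p under 0.05. Genes were tested when an expected IgG count of at least 5 over the 3 libraries followed from their pooled count, so genes of low signal are not covered. Nearly all of the pooled count is H3K9me3, so a gene enters through its H3K9me3 level, and a gene with little H3K9me3 and more IgG is left out. When all 41669 genes with a count were fitted, 261 were above and 765 below, and the genes left out by the filter gave 0 of the calls above and 516 of the calls below. Of the 405 genes above, 358 had a mean H3K9me3 CPM above the IgG CPM in all 3 genotypes, against 2765 of all 10627 genes tested (26.0%), but 191 of the 358 are above by having no IgG count. Of the 214 with an IgG count 167 were above in all 3, against 2520 of the 10382 genes tested with an IgG count (24.3%). A gene with no count in an IgG library is above there by that alone. Of the 61 with a count in each IgG library, 31 were above in all 3 (50.8%), against 149 of 2303 genes tested (6.47%). Of the 316 below, 136 had a count in each IgG library, without which a gene cannot be below in all 3 genotypes, and 103 of these were below in all 3, against 530 of the 2303 genes tested with such counts (23.0%). No IgG count was found for 191 of the 405 genes above (47.2%), against 245 of all genes tested (2.31%), so for many of them the depth sets only a nominal lower bound on the fold. Without the wild-type IgG library 0 of the 405 and 34 of the 316 kept their call, and 400 and 236 kept their sign. These signs were partly fixed in advance. Of the 405, 191 had no IgG count and 79 had IgG counts only in wild-type, so they could only stay above. Likewise, 31 of the 316 had IgG counts only in wild-type and could not stay below. The median log2 fold change of all genes tested was 0.16, and other scalings moved it to 0.29 (TMM), 0.24 (DESeq2 size factors) and 0.56 (all genes in the totals). The split of calls moved with it, as 56.2% of calls were above IgG by the main scaling, against 72.2%, 66.5% and 90.7% by these. Other choices turned the majority the other way, with 21.9% of calls above by the DESeq2 Wald test, 26.6% with filterByExpr, 25.4% with no filter and 35.7% with thinned H3K9me3 libraries. The gene counts thus do not show on which side of IgG more genes lie.

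The genes called above and below differed in where they lie. Of autosomal genes above IgG, 13.02% lay in the middle part of their chromosome, against 51.3% of those below and 31.98% of all autosomal genes tested. With no filter the middle parts had 15 genes above and 313 below, and the outer parts 201 above and 343 below. Median summed exon length was 1251 bases for genes above, 2117.5 bases for genes below and 1582 bases for all genes tested, a contrast that the filter touches because short genes enter only with a dense H3K9me3 signal. Median GC content of the exons was 43.9%, 41.7% and 42.4% in the same order. In the right part of chromosome V 63 of 957 genes tested were above and 5 below, whereas in the middle of chromosome I 6 of 476 were above and 39 below.

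The highest bound on the fold among the genes with no IgG count was at ZK849.1 (WBGene00014100, I 14182787 to 14185717), a protein-coding gene near the right end of chromosome I. It had 88.6 to 118 CPM in the 9 H3K9me3 libraries (median 96.9) and was at least 5.57-fold higher than IgG, taking 3 counts over the 3 IgG libraries together as the floor. The gene ctsa-1.2 (WBGene00008741, II 11739456 to 11742876), named for a serine carboxypeptidase of the lysosome, had 72.7 to 91.1 CPM (median 81.3) and was at least 4.55-fold higher. The chemoreceptor gene str-7 (WBGene00006075, V 16097985 to 16100209) had 45.2 to 78.4 CPM (median 62.7) and was at least 3.46-fold higher. None of these genes had a count in any IgG library. In the hrde-1 and hrde-2 IgG libraries the floor of 3 counts is 116.5 and 296 CPM, above the H3K9me3 levels, so these bounds rest on the pooled counts and not on each genotype. The pooled floor is the same for every such gene, so the order of the bounds is the order of the H3K9me3 levels. A floor of 3 counts holds for a gene fixed in advance. These genes were picked from many with the help of their missing IgG counts, so the true folds may be lower than the bounds. Other genes with no IgG count were gpa-9, which encodes a G protein alpha subunit (at least 3.18-fold), the C-type lectin gene clec-110 (at least 3.10-fold), and Y20F4.8, T06D4.1, Y51H4A.24, W04E12.5 and H08M01.1, which were between at least 3.27-fold and at least 3.58-fold higher. All of these are protein-coding and their H3K9me3 medians ran from 56.8 to 65.4 CPM.

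Some genes above the background did have IgG counts. At hsp-3 (WBGene00002007, X 6089033 to 6092124), the endoplasmic reticulum chaperone BiP, the H3K9me3 libraries had 195 to 269 CPM (median 239), against 77.6, 198 and 68.0 CPM in the IgG libraries of hrde-1, hrde-2 and wild-type. The hrde-2 value of 2 counts reached into the H3K9me3 range, and the log2 fold change was 1.63 ± 0.39 (SE, edgeR adjusted p 0.0077). At clec-119 (WBGene00018575, II 1255937 to 1258353), a C-type lectin gene, they had 126 to 187 CPM (median 153), against 77.6, 98.8 and 15.1 CPM. Here the groups did not overlap, with 2, 1 and 2 IgG counts, and the pooled ratio was 5.10 (2.19 to 15.7, exact 95% Poisson interval, counting error only).

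Among the genes below the background, F55F8.3 (WBGene00018891, I 5649756 to 5653648) had 26.2 to 42.3 CPM in the H3K9me3 libraries (median 35.4), against 311, 593 and 129 CPM in the IgG libraries of hrde-1, hrde-2 and wild-type, which is a log2 fold change of -2.54 ± 0.40 (SE, adjusted p 2.3e-05). trpp-8 (WBGene00018512, I 5610375 to 5616402) had 55.6 to 82.4 CPM (median 73.8), against 194, 494 and 302 CPM (log2 fold change -2.08 ± 0.30, SE, adjusted p 2.6e-06). mrpl-44 (WBGene00008514, III 9084306 to 9089386), which encodes a protein of the mitochondrial ribosome, had 58.8 to 89.9 CPM (median 80.3), against 466, 395 and 204 CPM (log2 fold change -1.95 ± 0.31, SE). At these 3 genes no H3K9me3 library reached any IgG value, and the IgG libraries held between 4 and 40 counts each. They were chosen as the lowest among calls below IgG in all 3 genotypes, which favours such separation. The share of all genes tested that show it is not given.

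Of the other genes named by the same rule, vha-7 encodes a subunit of the vacuolar proton pump (log2 fold change -2.35), acin-1 a relative of the splicing-associated protein acinus (-2.28), and cgt-3 a ceramide glucosyltransferase (-2.13). C18G1.6 stood at -2.49, F18E3.10 at -1.98 and tres-1 at -1.97. The list also held clec-129 of the C-type lectins (-2.14), ugt-6 of the UDP-glucuronosyltransferases (-1.997) and glr-6 of the glutamate receptors (-1.94). All of these were below IgG in each genotype. Without the wild-type IgG library the calls of F55F8.3 and mrpl-44 were kept and that of trpp-8 was not (adjusted p 0.096).

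By summed exon length, genes under 200 bases stood above the background in hrde-1 mutants and wild-type. Genes of 2000 to under 5000 bases stood below it in both. Genes of 200 to under 500 bases were slightly below it in both (-0.107 and -0.076 percentage points). Genes under 100 bases took 3.71 ± 0.331%, 3.39 ± 0.124% and 3.90 ± 0.205% of H3K9me3 counts in hrde-1, hrde-2 and wild-type (SD, n = 3), against 2.90%, 3.45% and 3.09% of IgG counts. Among H3K9me3 libraries 8 of 9 were above their IgG library, by 0.525 percentage points on average (exact permutation p = 0.0625, adjusted over 7 length classes 0.292). Genes of 2000 to under 5000 bases took 29.1 ± 0.228%, 29.4 ± 0.207% and 28.5 ± 0.166%, against 30.7%, 29.0% and 30.2% (exact permutation p = 0.125). No length class passed the test. The tRNA genes described below, with a mean difference of 0.358 percentage points, are short genes too. Their excess and that of genes under 100 bases are therefore not separate results. Among single genes in the test, 29 of 262 tested under 100 bases were above IgG and 0 below, and 18 of 192 tested of 100 to under 200 bases were above and 0 below. Of 3236 tested of 2000 to under 5000 bases, 88 were above and 159 below, and of 357 of 5000 bases and more, 19 were above and 16 below. These counts say little of short genes, since the tested ones under 100 bases are a few of 18628 and entered through a high H3K9me3 count, which favours calls above and nearly bars calls below. With no filter, 22 genes under 100 bases were above and 79 below, 13 and 88 of 100 to under 200 bases, and 64 and 141 of 2000 to under 5000 bases.

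By gene type, tRNA genes were the only one of 10 types whose share was above the background in all 9 H3K9me3 libraries. They took 0.902 ± 0.125%, 0.793 ± 0.0413% and 0.968 ± 0.104% of H3K9me3 counts in hrde-1, hrde-2 and wild-type (SD, n = 3), against 0.478% (0.400 to 0.569), 0.583% (0.452 to 0.751) and 0.530% (0.492 to 0.571) of IgG counts. The ratios were 1.89, 1.36 and 1.83, and the lowest hrde-2 library, at 0.748%, lay inside the interval of its IgG library. The difference of 0.358 percentage points reached the smallest p of the exact permutation test (0.03125), which became 0.312 after adjustment over the 10 types. Pseudogenes took 5.98 ± 0.239%, 6.16 ± 0.102% and 6.49 ± 0.0754%, against 5.71%, 6.46% and 5.32%, with hrde-2 on the other side. Protein-coding genes took 83.7 ± 0.551%, 84.3 ± 0.180% and 82.9 ± 0.596%, against 84.98%, 83.3% and 84.9%. Of single genes tested, 16 of 122 tRNA genes, 4 of 31 snoRNA genes, 30 of 352 ncRNA genes and 40 of 698 pseudogenes were above IgG, with 0, 0, 5 and 9 below. Of 9292 protein-coding genes, 313 were above and 301 below. The tested genes of the short types also entered through their H3K9me3 count. With no filter 14 tRNA genes were above and 2 below, against 3 and 4 snoRNA genes, 18 and 131 ncRNA genes and 24 and 32 pseudogenes, so tRNA genes alone of these 4 types kept more calls above than below.

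**Figure D4:**
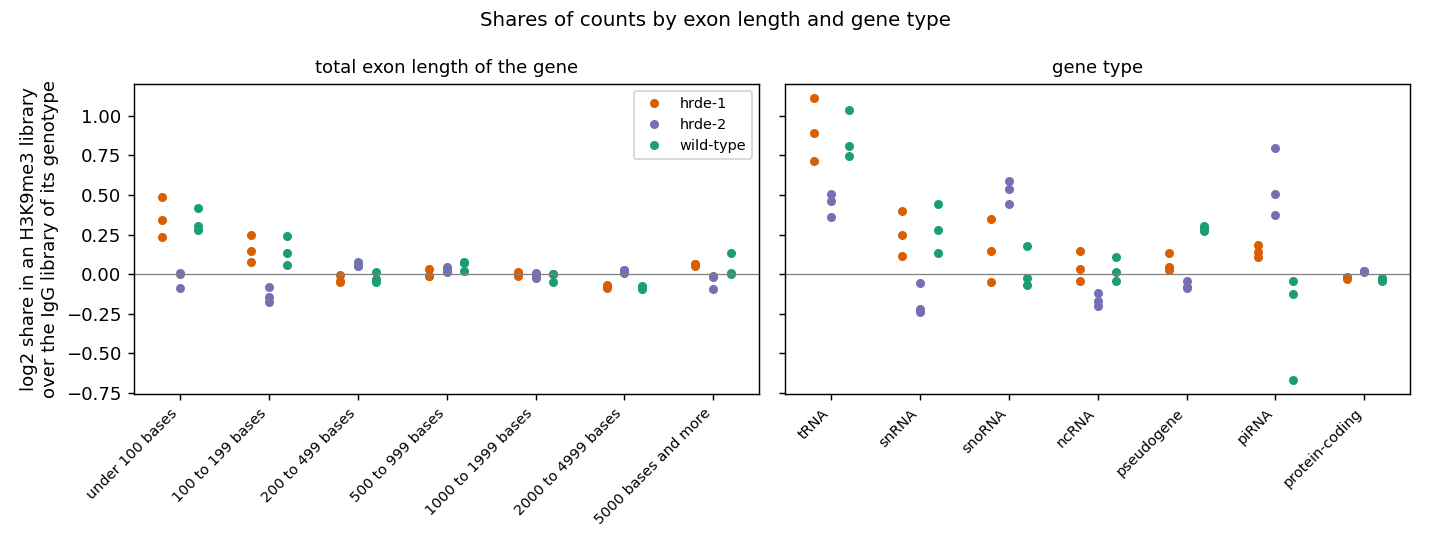
Log2 of the share of counts in each H3K9me3 library over the share in the IgG library of its genotype, by summed exon length (left) and by gene type (right), with 1 point a library and colours for genotypes. All 9 points of the tRNA genes lie above 0, and 8 of the 9 points of the genes under 100 bases do.

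tRNA genes carry their promoter inside the transcribed sequence, as an A box and a B box that are bound by the RNA polymerase III factor TFIIIC. The sequences of 5 tRNA genes above the background are shown here because they span the range from genes with many identical copies to genes with none, on which the placement of fragments depends. They are from RefSeq (WBcel235), 5′ to 3′ on the gene's strand, with a match to the B box motif (GGTTCGA, any 2 bases, then CC) in capitals, which C02B4.t1 lacks:
R04D3.t2: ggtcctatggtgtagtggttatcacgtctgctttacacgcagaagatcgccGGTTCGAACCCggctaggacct
C33G3.t2: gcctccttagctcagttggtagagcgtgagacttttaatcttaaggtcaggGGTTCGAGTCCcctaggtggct
Y51H4A.t4: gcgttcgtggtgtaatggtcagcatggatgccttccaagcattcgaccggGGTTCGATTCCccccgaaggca
C18D4.t1: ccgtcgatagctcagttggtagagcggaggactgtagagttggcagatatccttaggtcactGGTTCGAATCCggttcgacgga
C02B4.t1: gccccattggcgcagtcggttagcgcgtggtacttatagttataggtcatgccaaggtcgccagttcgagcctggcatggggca

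R04D3.t2, a tRNA-Val gene (WBGene00014478, X 13307034 to 13307106), had 80.3 to 141.7 CPM in the H3K9me3 libraries (median 90.3) and no IgG count, which is at least 5.44-fold higher. Its sequence occurs 2 times among the tRNA genes. C33G3.t2, a tRNA-Lys gene (WBGene00014275, X 14063946 to 14064018), had 40.7 to 87.5 CPM (median 53.7) and no IgG count, at least 3.13-fold higher, but its sequence occurs 14 times, so its own level is uncertain. The other 3 genes have a sequence that occurs once, but near copies exist. Y51H4A.t4 differs by 2 bases from a sequence that occurs 29 times, C18D4.t1 by 1 base and C02B4.t1 by 2 bases from another tRNA gene, so that fragments may be misplaced here too. Y51H4A.t4, a tRNA-Gly gene (WBGene00014582, IV 16684383 to 16684454), had 35.7 to 61.5 CPM (median 49.9) against 1 IgG count in wild-type, a pooled ratio of 8.32 (1.49 to 329). C18D4.t1, a tRNA-Tyr gene with an intron (WBGene00014263, V 17542446 to 17542529), had 37.1 to 53.4 CPM (median 43.0) and no IgG count, at least 2.47-fold higher. C02B4.t1, a tRNA-Ile gene with an intron (WBGene00009527, X 12661164 to 12661247), had 66.7 to 135 CPM (median 96.5) against 4 IgG counts, all in wild-type, a pooled ratio of 3.96 (1.55 to 14.6). None of the 5 had a count in the hrde-1 or hrde-2 IgG library. The floors of 3 counts there, 116.5 and 296 CPM, lie above the median H3K9me3 level of each of the 5. The calls thus rest on the wild-type IgG library. The 5 were taken from genes called above IgG, so these bounds and intervals are nominal too.

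Of 612 nuclear tRNA genes, 276 lie on X, 469 have an identical copy elsewhere and 279 had a count in any library. Of the 16 above IgG, 9 lie on X, 9 had no IgG count and 12 have an identical copy. The same motif, searched on both strands, occurred in 394 of the 612 (64.4%), in 72 of the 122 tested (59.0%) and in 9 of the 16 above (56.2%), against 271 of 1318 other single-exon nuclear genes of up to 90 bases (20.6%). The share with the motif was not higher among the genes above the background than among tRNA genes at large.

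By base composition, genes in the highest of 5 GC classes took 31.3 ± 0.557%, 30.6 ± 1.34% and 31.4 ± 2.29% of H3K9me3 counts in hrde-1, hrde-2 and wild-type (SD, n = 3), against 29.1%, 31.7% and 27.02% of IgG counts (exact permutation p = 0.156). The class below it, with the second highest GC content, was lower than IgG in all 9 libraries, with a mean difference of -0.536 percentage points (exact permutation p = 0.03125, adjusted over 5 classes 0.156). Base composition moves with amplification and with position on the chromosome, and its part in the differences above was not tested.

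Gene families were described by their summed CPM over all members, in H3K9me3 libraries (mean of 3) over the IgG library of the same genotype, and by the calls and the median log2 fold change of the members tested, beside 3.81% above, 2.97% below and a median of 0.16 over all genes tested. The tested members entered through their H3K9me3 count, so their calls and medians do not stand for the whole family. Of families known to be dense on chromosome arms, the 1085 chemoreceptors had summed ratios of 1.06, 0.947 and 1.11 in hrde-1, hrde-2 and wild-type. Of the 271 tested 19 were above IgG and 4 below, with a median of 0.49, whereas 7 were above and 16 below with no filter. The 240 C-type lectins, which bind sugars and many of which respond to microbes, had summed ratios of 1.01, 0.792 and 1.36, with 13 of 178 above and 3 below (median 0.41). F-box genes, whose products choose proteins for degradation, had 0.908, 1.07 and 1.21, with 7 of 144 above and 3 below (0.40). Nuclear hormone receptors had 1.12, 1.18 and 0.992, with 6 of 144 above and 3 below (0.33). In each of these 4 families the genotypes fell on both sides of IgG.

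Cuticle collagens had summed ratios of 1.09, 1.05 and 1.18 in hrde-1, hrde-2 and wild-type, over 270, 106 and 1195 IgG counts. The count in hrde-2 is too low to tell 1.05 from 1. Of the tested collagens, 5 of 148 were above (3.38%) and 2 below (median 0.31), and 3 were above and 2 below with no filter. Cytochromes P450 had 0 of 47 in either direction (0.23), with summed ratios of 0.649, 0.913 and 1.08, as did 25 genes of the BATH and MATH families (0.12), with 1.01, 0.946 and 0.958. UDP-glucuronosyltransferases had 0 of 27 above and 1 below (-0.10), and major sperm proteins 0 of 22 above and 1 below (0.22).

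Among the members named, the chemoreceptor genes srbc-17 and srh-252 had no IgG count and were at least 2.43-fold and at least 2.09-fold higher. The same held for fbxa-220 (at least 2.52-fold) and fbxc-4 (at least 2.28-fold) of the F-box genes, for clec-233 (at least 2.87-fold) of the C-type lectins, and for nhr-106 (at least 2.23-fold) and nhr-180 (at least 2.29-fold) of the nuclear hormone receptors. With 1 IgG count, nhr-15 had a pooled ratio of 14.9 (2.67 to 588), fbxb-53 one of 12.2 (2.20 to 483) and the collagen gene col-44 one of 10.9 (1.97 to 432). The collagen gene col-122 had 2 IgG counts and a pooled ratio of 6.97 (1.93 to 57.5), and clec-82 had 5 IgG counts and a pooled ratio of 4.46 (1.91 to 13.7). At col-88, near the left end of chromosome III, the libraries of hrde-2 had 234.6 CPM on average, against 108 CPM in hrde-1 and 146 CPM in wild-type, over 8 IgG counts in all. Each of these families is rich in similar copies, so a fragment may have been counted at the wrong member. The members were chosen by their test result, so these bounds and intervals are nominal and the true folds may be lower.

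Lists of genes used in most cells or in the germline had medians below that of all genes tested, but their summed ratios were below 1 in all 3 genotypes only for the genes of the germline and meiosis and for the proteasome. In hrde-1 and hrde-2 these ratios rest on 76 and 30 IgG counts for the germline and meiosis. For the proteasome they rest on 47 and 17. Such counts are too few to tell these ratios from 1. Genes of the germline and meiosis had summed ratios of 0.879, 0.929 and 0.669 in hrde-1, hrde-2 and wild-type, and 0 of 26 tested members above IgG and 4 below, with a median of -0.60. The 4 were him-1, a cohesin subunit (-1.63), syp-6 of the synaptonemal complex (-1.61), him-17, which acts in meiotic recombination (-1.22), and glh-1, a Vasa-like helicase of the germ granules (-1.10). Without the wild-type IgG library syp-6 and him-17 changed sign, to 0.63 and 0.19. Genes of the small RNA pathway had 1 of 25 above and 2 below (median -0.38), with summed ratios of 0.978, 1.496 and 0.685. The 2 were nrde-4 of the nuclear RNAi pathway (-1.75) and prg-1, the Piwi Argonaute (-1.14). The 1 above was wago-10, an Argonaute gene, at 1.58, and it is named here because it is the exception, chosen after its value was seen. Translation factors had 0 of 18 above and 1 below, eif-3.L (median -0.47), with summed ratios of 0.825, 1.26 and 0.704. Proteasome genes had 0 of 26 in either direction (-0.38), with 0.815, 0.939 and 0.732. Spliceosome genes had 0 of 8 (-0.49), with 1.17, 0.893 and 0.551. Ribosomal protein genes had 1 of 34 above, rpl-18, and 0 below (-0.22), with 0.615, 1.08 and 0.833. Histone genes had 1 of 50 above, his-32, and 1 below (-0.10). Heat shock protein genes had 1 of 10 above, hsp-3, and 0 below (-0.24). Genes for H3K9 and H3K27 methyltransferases and readers had 0 of 6 in either direction (-0.73), and their summed ratios of 2.59, 1.15 and 0.586 put them above IgG in hrde-1 and hrde-2, over 4 IgG counts each, and below in wild-type.

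At prg-1 (WBGene00004178, I 7585324 to 7588367) the H3K9me3 libraries had 89.4 to 132 CPM (median 102), against 194, 198 and 234 CPM in the IgG libraries of hrde-1, hrde-2 and wild-type, which held 5, 2 and 31 counts. At glh-1 (WBGene00001598, I 6854688 to 6857529) they had 91.4 to 139 CPM (median 108), against 77.6, 395 and 242 CPM. prg-1 was thus below IgG in each genotype and glh-1 in hrde-2 and wild-type only, and nrde-4 had IgG counts only in wild-type, at 136 CPM. Without the wild-type IgG library none of these calls was kept (adjusted p 0.362 for prg-1 and 0.676 for glh-1).

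**Figure D5:**
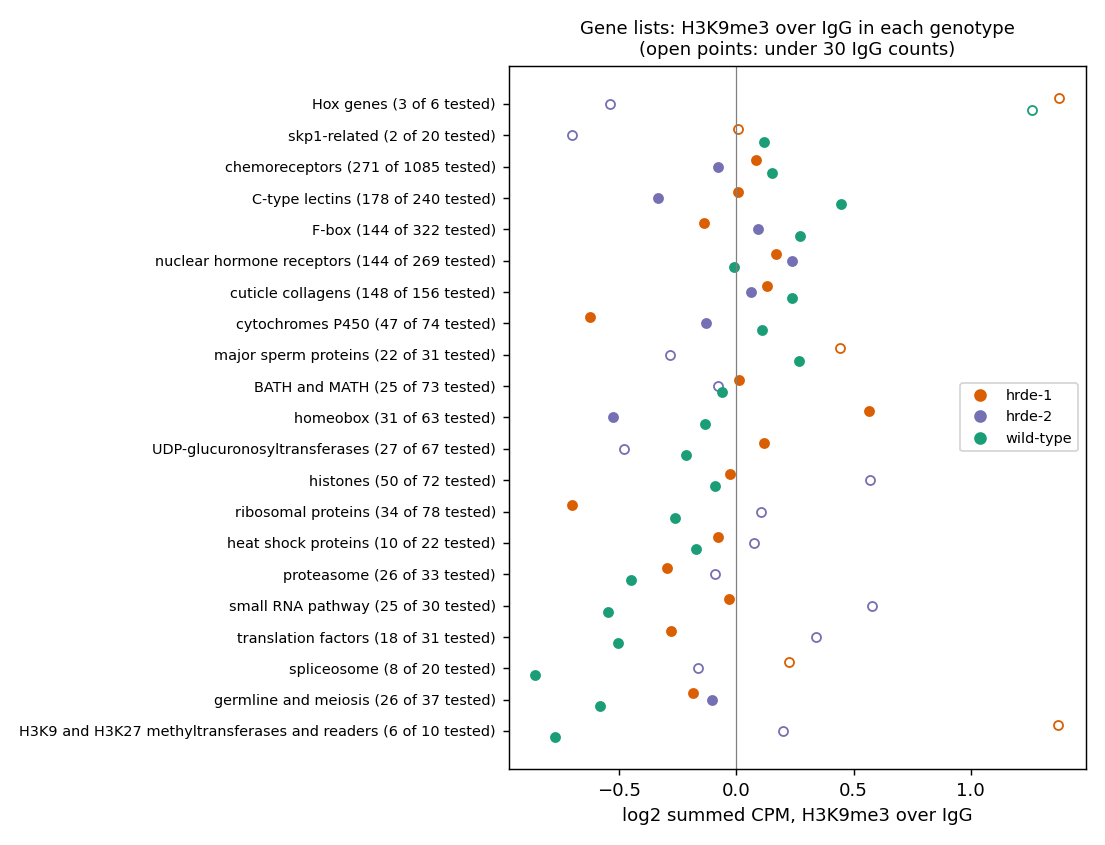
Log2 of the summed CPM of each gene list in H3K9me3 libraries (mean of 3) over the IgG library of the same genotype, 1 point a genotype, with the number of tested members of each list; open points rest on under 30 IgG counts. Lists are ordered by the median log2 fold change of their tested members, from 2.51 for the Hox genes to -0.73 for the methyltransferases and readers, and the 3 genotypes spread widely within most lists.

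Of the 6 Hox genes, which set positional identity along the body, 3 could be tested and 1 was above IgG. nob-1 (WBGene00003779, III 12077788 to 12084320) had 62.4 to 77.6 CPM in the H3K9me3 libraries (median 68.2) against 1 IgG count, in wild-type, a pooled ratio of 11.7 (2.10 to 461). Of the homeobox genes named ceh, 0 of 31 were above and 1 below, ceh-38 (log2 fold change -1.39, median of the list 0.05). The position of each list against all genes kept its sign under the other scalings of the totals. Without the wild-type IgG library it changed sign for 9 of the 21 lists (C-type lectins, F-box genes, collagens, cytochromes P450, major sperm proteins, histones, homeobox genes, translation factors, and the methyltransferases and readers). It kept its sign for the others, chemoreceptors, nuclear hormone receptors, and genes of the germline and meiosis among them. This position is relative to all genes tested, whose median was then 0.50. The median of the germline and meiosis genes was then 0.10, so that list was no longer below IgG.

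The 5 genes with the most IgG counts were a mixture. F31C3.14 (WBGene00196396, I 15067668 to 15068355) and F31C3.16 (WBGene00201398, I 15060861 to 15061159) are ncRNA genes within the rDNA repeat. F31C3.14 had 486 to 885 CPM in the H3K9me3 libraries (median 786), against 1242, 692 and 3017 CPM in the IgG libraries of hrde-1, hrde-2 and wild-type (log2 fold change -1.43 ± 0.17, SE, adjusted p 8.6e-09). F31C3.16 had 452 to 860 CPM (median 726), against 1204, 988 and 2578 CPM (-1.38 ± 0.17, SE). At F31C3.14 the hrde-2 IgG library lay inside the H3K9me3 range, and at F31C3.16 no H3K9me3 library reached an IgG value. These 2 genes follow the rRNA genes, whose share of counts was also highest in the wild-type IgG library.

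The other 3 genes are very long and did not pass the test in either direction. ttn-1, the giant muscle protein titin (WBGene00006436, V 6120909 to 6202626), had 2036 to 2535 CPM (median 2252), against 1669, 2668 and 2382 CPM (log2 fold change 0.03 ± 0.15, SE). ZC247.1 (WBGene00013859, I 10264314 to 10279234) had 2236 to 2995 CPM (median 2566), against 2718, 2372 and 1777 CPM (0.32 ± 0.15, SE, edgeR adjusted p 0.18). dig-1, a giant protein of the extracellular matrix (WBGene00000998, III 6746308 to 6794764), had 1139 to 1300 CPM (median 1245), against 854, 791 and 1580 CPM (-0.10 ± 0.17, SE). Each of these 3 genes thus had levels of the same order in the IgG libraries as in the H3K9me3 libraries.

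At the mutated genes the signal did not stand apart from the background. hrde-1 (WBGene00007624, III 4172337 to 4176159) had 102 to 151 CPM in the H3K9me3 libraries (median 119.1), against 77.6, 198 and 159 CPM in the IgG libraries of hrde-1, hrde-2 and wild-type (log2 fold change -0.38 ± 0.35, SE, edgeR adjusted p 0.547). hrde-2 (WBGene00011324, V 15005100 to 15006400) averaged 26.0, 29.8 and 26.7 CPM in the H3K9me3 libraries of hrde-1, hrde-2 and wild-type, against 0, 1 and 3 IgG counts, and was too low to be tested. Counts over whole genes show neither mutation and give no check of the genotype labels.

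Chromatin counts do not measure expression, so marker genes give no check of the isolated nuclei. Of the markers of cell types examined, 7 of 7 germline genes were tested, with 0 above IgG and 1 below, glh-1. Of the tested markers for sperm, muscle, pharynx, intestine, neurons and epidermis, only unc-54 of the body muscle was above IgG. It averaged 675, 641 and 688 CPM in the H3K9me3 libraries of hrde-1, hrde-2 and wild-type, against 311, 692 and 401 CPM in the IgG libraries (log2 fold change 0.75, edgeR adjusted p 0.039). Its hrde-2 IgG library was thus above the H3K9me3 mean of that genotype.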

How the data were processed

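The authors aligned paired-end reads to the WS258 genome with bowtie2 2.5.0 and deposited raw counts per gene. Per the file headers, featureCounts 2.0.1 assigned fragments to exons of the WS258 canonical gene set without use of strand, so overlapping and antisense genes cannot be told apart, introns and intergenic DNA are not covered, and the count of a gene that has identical copies is uncertain. Duplicate removal and spike-in scaling are not given in the sources used here. All values are therefore relative to the other nuclear genes of a library.

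Counts were divided by the total over nuclear genes without rRNA genes, with no further scaling. Symbols and gene types came from Ensembl release 115 by gene ID (46564 of 46760 genes, all on the same chromosome), coordinates from the deposited files. Genes with an expected count of at least 5 in the pooled IgG libraries, and windows of 500 kb, were fitted in edgeR 4.0.16 (R 4.3.3) with genotype and antibody as terms over all 12 libraries (quasi-likelihood F-test, Benjamini-Hochberg adjusted p under 0.05), after the code had been tested on simulated data. Each IgG library is the only one of its genotype, and the p-values assume that a library varies alike in both groups. The simulated data made the same assumption, so they say nothing of IgG libraries that are more uneven. Shares were compared by exact two-sided permutation of the antibody label within genotypes (64 arrangements, smallest p 0.03125). Intervals and floors (3 counts) cover counting error only. They take a gene as fixed in advance, so for genes chosen by their counts a fold given as at least a value can be too high. How often H3K9me3 and IgG values do not overlap over all genes or windows is not given. Genes and windows chosen by their fold change tend to show such separation.

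Genes named are the 12 highest and 12 lowest log2 fold changes among calls on the same side in all 3 genotypes (at most 3 of a family), the 2 genes with most counts in the 6 highest and 6 lowest windows, up to 3 members of each list, the 5 genes with most IgG counts, hrde-1 and hrde-2. Of those of the windows, the ones called are described. The members and lists were chosen with earlier results of these data known. Alternatives were TMM (edgeR), size factors and the Wald test of DESeq2 1.42.0, all genes in the totals, other filters, thinned H3K9me3 libraries, windows of 200 kb, protein-coding genes only and leaving out each library. Leaving out the rDNA repeat, and other totals for gene types and GC classes, were added after the data had been seen.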

Additional observations from a re-analysis of the deposited data

Results flagged for a closer look

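The difference between H3K9me3 and IgG was not the same in the 3 genotypes. Tested as an interaction of genotype and antibody (edgeR, with the lone IgG library of each genotype assumed to vary like the other libraries), it differed between hrde-1 mutants and wild-type in 5 of 203 windows of 500 kb (2.46%) and between hrde-2 mutants and wild-type in 22 (10.8%). In hrde-1 mutants the ratio of H3K9me3 to IgG was higher than in wild-type in 4 of the 5. In hrde-2 mutants it was higher in 15, most of them in the middle of an autosome, and lower in 7, all in the outer parts of an autosome or on the left end of X. The largest difference was in the window of chromosome IV from 9000001 to 9500000, with log2 ratios of 1.05 in hrde-2 mutants and -0.35 in wild-type. These windows follow IgG libraries of 10120 and 132269 counts, and the parts of genotype and of the single IgG library cannot be told apart.

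Some shares of counts moved in opposite directions, with all 3 H3K9me3 libraries of one genotype above their IgG library and all 3 of another below it. The differences between genotypes in these shares were not tested. In the outer parts of the autosomes, H3K9me3 minus IgG was 2.59 percentage points in hrde-1 mutants, -1.01 in hrde-2 mutants and 6.499 in wild-type. On chromosome V it was 1.38, -0.400 and 1.495 in the same order, on chromosome III -0.895, 0.216 and -1.04, and on chromosome II -0.980, 0.710 and -0.241. On X it was -0.640 in hrde-2 mutants and 0.464 in wild-type. Genes of 100 to under 200 bases gave 0.427, -0.366 and 0.401 percentage points in hrde-1, hrde-2 and wild-type, genes of 2000 to under 5000 bases -1.59, 0.397 and -1.70, and genes of 5000 bases and more 0.410, -0.286 and 0.316. Genes of 200 to under 500 bases gave -0.107 for hrde-1 and 0.188 for hrde-2. In every one of these, hrde-2 mutants, whose IgG library is the shallowest, stood on one side and the other genotypes named on the other.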

How the results depend on the processing

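No paired analysis was possible because each genotype has only 1 IgG library, with no replicate number to pair it with one of the 3 H3K9me3 libraries. Depth limits most results: the IgG libraries set the error, and the wild-type library decides most calls.

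Genes above IgG numbered 405 and genes below 316 in the main test, and the counts moved to 1400 and 143 with all genes in the totals, 149 and 532 with the DESeq2 Wald test, 15 and 27 with thinned H3K9me3 libraries, 242 and 667 with filterByExpr (28612 genes tested), 169 and 105 with an expected IgG count of at least 10 (4224 genes tested), and 261 and 765 with no filter (41669 genes tested). More genes were below than above with the Wald test, thinning, filterByExpr and no filter, the reverse of the main test. TMM left 201 genes below. Leaving out single libraries gave 1 to 644 genes above and 94 to 456 below, with 1 above and 94 below without the wild-type IgG library and 644 above without that of hrde-1. Windows above and below, 43 and 45 in the main test, numbered 143 and 2 with all genes in the totals and 76 and 94 of 504 with windows of 200 kb. Leaving out single libraries gave 0 to 54 windows above and 1 to 58 below.

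With all genes in the totals, the rRNA genes on the right arm of chromosome I entered its share, and H3K9me3 minus IgG became -9.15 percentage points on chromosome I, 2.21 on II, 1.35 on III, 2.39 on IV, 3.85 on V and 2.45 on X, where each p was the smallest the exact permutation test can give. It became -2.52 in the outer parts, 2.94 in the middle and -7.22 in the right part of chromosome I, and -0.0133 for genes of 100 to under 200 bases. By type it became 0.0384 for lincRNA, 0.00513 for miRNA, 0.726 for ncRNA and 11.3 for protein-coding genes. By GC class, from the second lowest to the highest, it became 1.35, 2.82, 4.25 and 5.41. Without the 10 highest genes it was -0.00559 for genes of 5000 bases and more. Without the rDNA repeat it was 0.0547 for ncRNA genes and 0.0823 for genes of 200 to under 500 bases.

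Leaving out single libraries, the difference ran from -0.610 to 0.235 on II, from -0.102 to 0.450 on X (below 0 without the wild-type or the hrde-1 IgG library) and from -0.0916 to 0.0558 for genes of 200 to under 500 bases. It kept its sign on I (-0.595 to -0.391), III (-0.966 to -0.339), IV (0.153 to 0.478), V (0.489 to 1.44), in the outer parts (0.787 to 4.54) and for genes under 100 bases (0.378 to 0.815), from 100 to under 200 (0.0175 to 0.414), 500 to under 1000 (0.167 to 0.453), 1000 to under 2000 (-0.267 to -0.0428), 2000 to under 5000 (-1.65 to -0.596) and 5000 bases and more (0.0152 to 0.363).

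Log2 fold changes of some single genes and windows changed sign. With all genes in the totals they were 0.28 for dig-1, 0.018 for hrde-1, 0.051 for Y32H12A.8, 0.21 for sax-2, and 0.035 for the window I 6500001 to 7000000, 0.0036 for III 5000001 to 5500000 and 0.0089 for III 6000001 to 6500000. For dig-1 they were 0.12 with TMM, 0.072 with DESeq2 size factors and 0.058 with thinned libraries, which also gave -0.032 for ttn-1 and -0.079 for nhr-1. Leaving out single libraries, with the first value from the fit without the hrde-1 IgG library and the second from that without the wild-type one, the change was -0.28 and 0.59 for dig-1, -0.52 and 0.14 for hrde-1, 1.30 and -0.53 for R10E8.6, 0.53 and -0.19 for pcp-4, -2.17 and 0.81 for dpy-14, -0.48 and 0.32 for Y32H12A.8, -1.45 and 1.73 for eat-16, -0.77 and 1.08 for npp-10, -1.92 and 0.42 for msp-78, -1.91 and 0.63 for syp-6, -1.39 and 0.19 for him-17, -2.06 and 10.23 for nrde-4 (no IgG count left), -0.54 and 0.10 for I 6500001 to 7000000, and -0.13 and 0.22 for ttn-1, which was also -0.03 without wild-type H3K9me3 replicate 3. The cause of these changes was not tested.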
